A study of Juglans regia with 15 samples.

Results

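The 100 genes described here are those of the walnut endopleura whose transcript level stood highest at 63 days after pollination (DAP). The endopleura is the thin seed coat that wraps the walnut kernel. They were chosen from measured values. A gene entered when it had at least 1 FPKM (sequenced fragments of a gene scaled by its length and by the depth of the library) in at least 3 of the 15 libraries, and when all 3 libraries at 63 DAP lay above every library of the other stages. Of 39414 genes in the table, 22310 passed the level filter, and 664 of those (2.98%) met the second condition. The 100 with the largest gap were kept. The gap is the mean of log2(FPKM + 1) at 63 DAP minus the next highest stage mean.

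RNA was sequenced from the endopleura of 1 walnut (Juglans regia) cultivar, Linzaoxiang, at 5 stages of nut development, 35, 63, 91, 119 and 147 DAP, with 3 libraries per stage. Each library came from the mixed endopleuras of several nuts, so the spread between libraries is the spread between pools. No treatment or genotype differed between the stages. The stages differ in nut age only as far as the labels say, and all libraries are bulk tissue, where fewer cells of a type and less RNA per cell cannot be told apart.

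The endopleura derives from the integuments of the ovule, which is maternal tissue, and surrounds the growing embryo. It is known for its flavonoids and condensed tannins, which colour the skin of the kernel and give its astringency. Early in seed growth the seed coat divides and expands and often holds starch for a time, and later it matures into a thin dry skin while the embryo fills with oil and storage protein.

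Of the 10 flavonoid genes examined, 6 passed the level filter. Among these, JreChr09G12363 (JrANR), homolog of the Arabidopsis anthocyanidin reductase gene that feeds condensed tannin synthesis, ranged from 71.0 to 1058 FPKM over the 15 libraries. Transcripts of embryo storage genes were present too. The 4 embryo genes examined, encoding a pair of glutelin-like storage proteins, an oleosin and a late embryogenesis abundant protein, summed to 1.17 to 2.67 FPKM at 35 DAP and 1784 to 6597 at 63 DAP. Their sum then ranged over 4865 to 9814 FPKM in the 91-day, 3493 to 19562 in the 119-day and 2082 to 3503 in the 147-day libraries. Replicate 3 at 63 DAP had the highest embryo sum of its stage, 6597 FPKM against 1969 and 1784. The glutelin homologs led this sum. JreChr03G12612 had 5004 FPKM in replicate 3 against 1176 and 1001, and JreChr03G12610 had 1402 against 584 and 601. The oleosin homolog was lowest in replicate 3, with 144 FPKM against 173 and 155. The late embryogenesis gene had 47.0 FPKM against 36.9 and 26.6. The embryo genes thus stayed high after 63 DAP, at stages where the 100 genes were low. Their part in the levels given here was not tested. Values of FPKM summed to between 851621 and 1113620 per library, and absolute read numbers are not known from these values. Relative depth, read from the step between low values, was 0.866, 1.15 and 1.13 in the 63-day libraries, and the deepest of all libraries was 1.35 times the shallowest.

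The 100 genes ranged from 2.20 to 21778 FPKM in their mean at 63 DAP, with a median of 17.0. Of these, 20 reached at least 100 FPKM and 30 stayed under 10. The median member had 22.3, 21.4 and 11.9 FPKM in the 3 libraries at 63 DAP. At 35 DAP it had 1.15, 2.20 and 1.47 FPKM. The 91-day libraries gave 1.02, 0.825 and 0.692 FPKM and the 119-day libraries 0.682, 0.681 and 1.03. The last stage, 147 DAP, gave 0.0378, 0.222 and 0.122 FPKM. The choice of genes makes the 63-day libraries the highest, and it does not set the order of the other stages. Among those, the median fell from 35 to 147 DAP, with the ranges of 91 and 119 DAP overlapping.

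**Figure D1:**
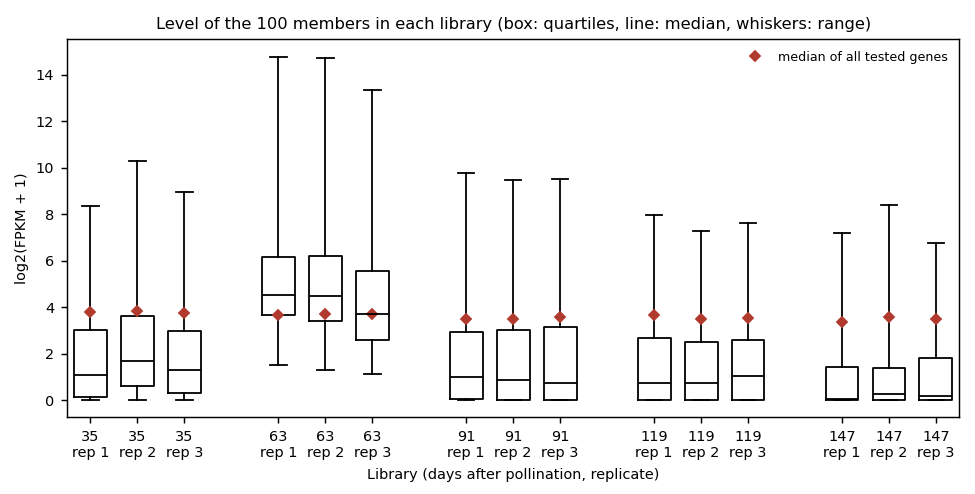
Boxes show log2(FPKM + 1) of the 100 genes in each of the 15 libraries (vertical axis), ordered by days after pollination (horizontal axis), with quartiles, median line and full range, and diamonds mark the median of all tested genes. The medians at 63 DAP lie at 22.3, 21.4 and 11.9 FPKM before the log scale, and those of every other library lie at 2.20 FPKM or lower.

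The next highest stage was 35 DAP in 55 genes, 91 DAP in 23, 119 DAP in 13 and 147 DAP in 9. High levels at 35 DAP were common in the tissue. Of all tested genes, 25.2% had all 35-day libraries above every other library, against 3.29% at 91, 1.06% at 119 and 9.51% at 147 DAP. The next highest stage was not counted for genes outside the set. The transcripts of 13 genes were listed at 0 in all 9 libraries from 91 DAP on, and 44 had a mean under 1 FPKM at each of 91, 119 and 147 DAP. By contrast, 39 were above 0 in all 15 libraries. In 25 genes no library outside 63 DAP reached 1 FPKM. The mean fell at each step from 63 to 147 DAP in 31 genes. The set therefore held both genes seen almost solely at 63 DAP and genes with a lasting lower level.

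The gene with the largest gap, JreChr05G10003, lies on chromosome 5, bases 10041111 to 10042317 of the authors' walnut assembly, and none of the tables used here annotates it. It had 557, 368 and 121 FPKM at 63 DAP, a mean of 349 ± 218 (SD, n = 3). At 35 DAP it had 0.453, 1.61 and 1.44 FPKM, and in all 9 later libraries it was listed at 0. Its gap was 7.12 on the log2(FPKM + 1) scale, and its mean at 63 DAP was 299 times that at 35 DAP. The replicates at 63 DAP spread more than 4-fold, yet the lowest of them was far above every other library.

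JreChr07G12244 (chromosome 7, bases 3551659 to 3556521) came next, with a gap of 5.62. It had 252, 234 and 70.7 FPKM at 63 DAP (mean 185 ± 99.7, SD, n = 3). Elsewhere it ranged from 0.0526 to 3.14 FPKM, and the highest of these libraries was at 147 DAP. It was low but not silent at every other stage.

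JreChr13G12089 (chromosome 13, bases 890230 to 890711) was the most abundant of the 100. It had 27984, 26967 and 10382 FPKM at 63 DAP, and in the mean of that stage only 2 genes of the whole table stood above it. Before that, at 35 DAP, it had 327, 1241 and 488 FPKM. After it, the 91-day libraries had 884, 705 and 45.9 FPKM, the 119-day libraries 97.97, 118.6 and 57.7, and the 147-day libraries 2.73, 6.07 and 5.68. It thus ranged from 2.73 to 27984 FPKM, with a low replicate 3 at both 63 and 91 DAP. The gene's annotated span is 482 bases. The 100 genes made up 4.03, 3.94 and 1.92% of all FPKM in the 3 libraries at 63 DAP, and 1.25, 1.18 and 0.818% without JreChr13G12089.

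Of the following lead genes, JreChr01G13500 had 224, 273 and 143 FPKM at 63 DAP, 14.6, 12.1 and 4.44 at 35 DAP, and 0 to 2.103 in the later libraries. JreChr07G11421 had 345, 224 and 74.6 FPKM at 63 DAP, and 4.89, 4.94 and 4.61 at 35 DAP. It stayed between 0 and 1.20 FPKM in the 91-day and between 2.03 and 5.26 in the 119-day libraries. It was higher again at 147 DAP, with 9.38, 6.93 and 11.8 FPKM. The first of these genes had its second highest stage before 63 DAP and the other after it. Neither has an annotation in the tables used.

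JreChr02G11058 had 767, 699 and 212 FPKM at 63 DAP, 32.1, 83.8 and 46.2 at 35 DAP, and 77.2, 65.7 and 9.94 at 91 DAP. It went on to 4.47 to 9.74 FPKM at 119 DAP and 0 to 0.0411 at 147 DAP. Its rank by mean at 63 DAP among all genes was 174. This gene kept a moderate level on both sides of 63 DAP and was near 0 at 147 DAP.

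The remaining lead genes were less abundant. JreChr13G10266 had 28.6, 27.4 and 19.9 FPKM at 63 DAP and 0 to 1.88 elsewhere. JreChr04G10173 had 27.6, 12.1 and 6.70 FPKM and 0 to 0.518 elsewhere. JreChr13G12146 had 18.6, 26.0 and 8.26 FPKM at 63 DAP and 0 to 1.39 elsewhere. JreChr14G10117 had 24.1, 26.4 and 6.40 FPKM at 63 DAP, 0.0535 to 2.07 at 35 DAP, and was listed at 0 in 8 of the 9 later libraries. In all 4 the 63-day libraries stood alone, and replicate 3 was the lowest of them.

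**Figure D2:**
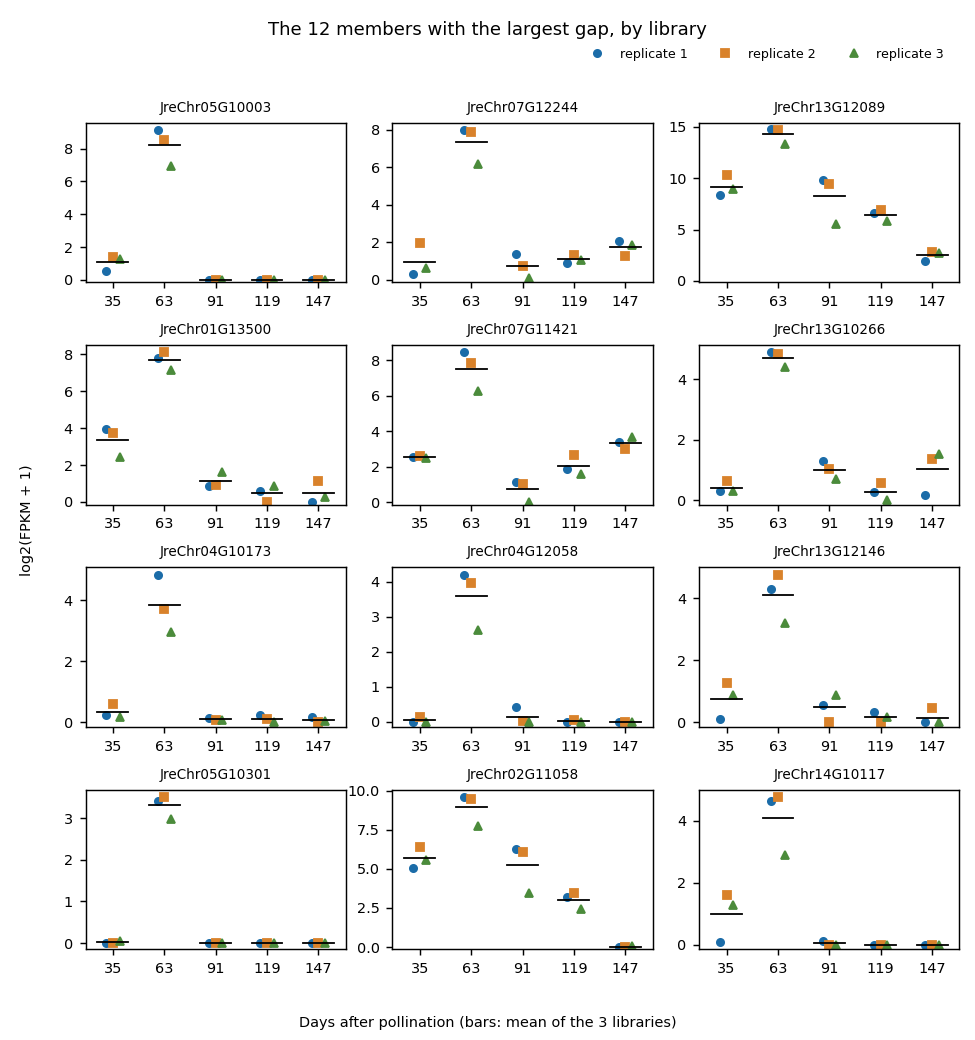
Each panel shows 1 of the 12 genes with the largest gap, as log2(FPKM + 1) (vertical axis) against days after pollination (horizontal axis), with 1 symbol per replicate and a bar for the mean of the 3 libraries. In all 12 panels the 3 points at 63 DAP lie above all others, and replicate 3, the triangle, is the lowest of them.

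JreChr12G11149 and JreChr11G10150 followed it in abundance among the 100. JreChr12G11149 (chromosome 12, bases 22574081 to 22574485) had 4707, 4047 and 3345 FPKM at 63 DAP. The 35-day libraries had 62.0 to 101.5 FPKM, the 91-day libraries 676 to 721, the 119-day libraries 156 to 251 and the 147-day libraries 61.2 to 331. JreChr11G10150 had 1205, 1248 and 518 FPKM at 63 DAP. In the other stages, taken in order, it had 61.1 to 196, 31.9 to 345, 34.3 to 76.7 and 0 to 0.186 FPKM. JreChr12G11149 was still well expressed at the last stage, where JreChr11G10150 was nearly absent. Both have short annotated spans, of 405 and 549 bases.

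At the lower end, JreChr04G10064, JreChr07G11620 and JreChr01G11823 had the lowest means at 63 DAP, of 2.20, 2.40 and 2.95 FPKM. JreChr04G10064 had 3.13, 1.64 and 1.84 FPKM at 63 DAP and at most 0.257 elsewhere. Such genes are in the set because they were near 0 at the other stages.

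The boundary of the set is not a step in the values. The last genes inside, JreChr05G12405 and JreChr12G10985, had gaps of 1.45 and 1.44, and the first outside, JreChr04G10336 and JreChr04G12561, had gaps of 1.44 and 1.42. JreChr12G10985 had 10.02, 8.88 and 11.5 FPKM at 63 DAP against at most 4.08 elsewhere. JreChr04G12561 had 5.80, 2.65 and 1.49 FPKM at 63 DAP against at most 0.595.

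The supplementary annotation tables of the study cover few of these genes. Of the 100, 9 were in them, where 8.48% of all tested genes were, and 7 had a protein domain or an Arabidopsis or rice homolog. The other 91 stay without a name or role here. Of the 7, 4 act on lipids, acyl groups or sugars by their annotation, 1 is a secreted protein, 1 a transcription factor, and 1 is described only as an expressed protein.

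JreChr04G12058 and JreChr04G11996 carry the domain of GDSL-like lipases and acylhydrolases, a large plant family of enzymes that cleave ester bonds in lipids and other substrates. Both are matched to the same Arabidopsis gene, AT5G15720, and both lie on chromosome 4, at bases 4848590 to 4850660 and 4359492 to 4361360. JreChr04G12058 had 17.5, 14.6 and 5.23 FPKM at 63 DAP, and JreChr04G11996 had 11.5, 11.6 and 3.595. Outside 63 DAP the highest library of either gene was replicate 1 at 91 DAP, with 0.338 and 0.313 FPKM. The pair had much the same course, a level seen in this tissue at 63 DAP and hardly elsewhere. Reads shared between close copies could have been divided between them, so their separate levels are uncertain.

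JreChr04G11976, also on chromosome 4 (bases 4204350 to 4206243), has an AMP-binding enzyme domain and is matched to AT1G65890. Enzymes of this family activate acids as adenylates, commonly on the way to a coenzyme A ester. It had 3.92, 2.96 and 2.11 FPKM at 63 DAP, 0.037 to 0.232 at 35 DAP, and was listed at 0 in 8 of the 9 later libraries. Its level was the lowest of the annotated genes.

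JreChr12G10791 is matched to AT1G32900, which in Arabidopsis encodes the granule-bound starch synthase that makes amylose. It had 139, 138 and 145 FPKM at 63 DAP (mean 141 ± 3.98, SD, n = 3). At 35 DAP it had 30.6, 35.9 and 24.5 FPKM. The 91-day libraries had 33.4, 39.8 and 50.5 FPKM, the 119-day libraries 48.7, 34.0 and 61.2, and the 147-day libraries 5.48, 10.3 and 7.06. It was thus expressed in all 15 libraries, with the 3 at 63 DAP within 5% of their mean and with its lowest level at 147 DAP. Its mean at 63 DAP was 2.93 times that at 119 DAP, its next highest stage.

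JreChr05G10301 (chromosome 5, bases 1287935 to 1288615) is described as a secretory protein with the domain of plant and bacterial peptidases and is matched to AT2G15220. It had 9.69, 10.4 and 6.96 FPKM at 63 DAP. It was listed at 0 in 11 of the other 12 libraries, the exception being 35 DAP replicate 3 with 0.0353 FPKM. Among the annotated genes it was the most restricted to 63 DAP.

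JreChr03G12037 has the NAM domain of the NAC transcription factors, plant regulators of organ boundaries, cell wall thickening and senescence, and is matched to AT4G29230. It had 13.5, 9.88 and 4.66 FPKM at 63 DAP. In the other stages, in order, it had 1.90 to 2.32, 0.773 to 1.41, 0.512 to 2.07 and 0.0383 to 1.42 FPKM. It was the only gene of the transcription factor list among the 100. JreChr13G10242, an expressed protein matched to AT5G60700, had 12.7, 11.97 and 2.19 FPKM at 63 DAP, 0 to 0.874 at 35 DAP and 0 to 0.115 in the later libraries. In both genes replicate 3 at 63 DAP was the lowest of its stage and still above all other stages.

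**Figure D3:**
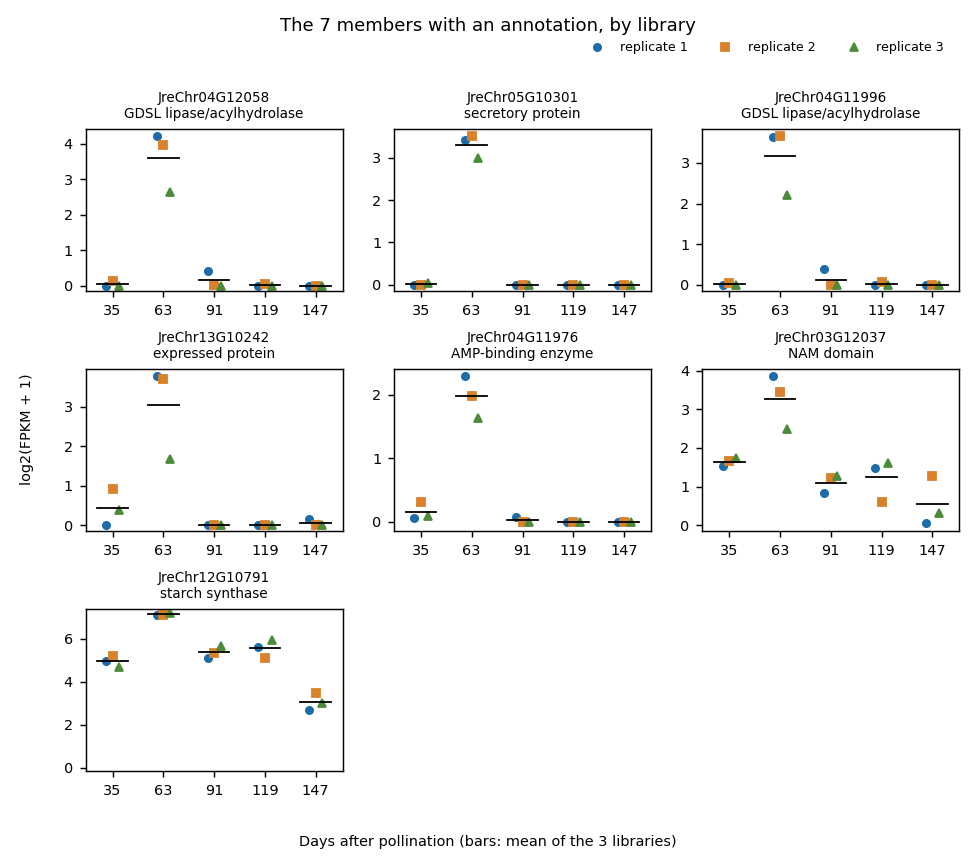
Each panel shows 1 of the 7 annotated genes, as log2(FPKM + 1) (vertical axis) against days after pollination (horizontal axis), with 1 symbol per replicate and a bar for the mean of the 3 libraries. The starch synthase homolog JreChr12G10791 is expressed at all stages and has nearly equal points at 63 DAP, the NAM gene JreChr03G12037 keeps a low level at the other stages, and the other 5 genes are at or near 0 there in most libraries.

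Replicate 3 at 63 DAP stood apart from the other libraries of its stage in these genes. It was the lowest of the 3 in 80 of the 100, against 7 for replicate 1 and 13 for replicate 2. Over the 21770 tested genes above 0 in these libraries it was the lowest in 33.2%, and over the other 564 genes that met the non-overlap condition in 44.3%. The median ratio of replicate 1 to replicate 3 was 2.09, and that of replicate 2 to replicate 3 was 1.79. Between replicates 1 and 2 the median ratio was 1.09. The ratio of replicate 1 to replicate 3 over all those tested genes had a median of 0.990. Replicate 3 was also the library with the highest embryo sum of its stage (6597 FPKM), led by the glutelin homologs, while the oleosin homolog was lowest in it. The profile of replicate 3 over all tested genes had a correlation of 0.940 with the 91-day mean, where replicates 1 and 2 had 0.926 and 0.933. These correlations are across 22310 genes, which are not independent, and their part in the members' lower level was not tested. In the sets of 100 genes chosen by the same rule at the other stages, 1 library was also the lowest most often. This was replicate 2 in 74 genes at 147 DAP, in 56 at 35 DAP and in 52 at 119 DAP. At 91 DAP it was replicate 3, in 49 genes.

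In 39 of the members replicates 1 and 2 at 63 DAP were each over 2 times replicate 3, among them JreChr05G10003, JreChr13G12089 and the GDSL pair. In 24 genes the highest library at 63 DAP was under 1.5 times the lowest. Among these even genes were JreChr12G10791, JreChr12G11149, JreChr05G10301 and JreChr13G10266. The even genes had 35 DAP as their next highest stage in 7 of 24, the uneven ones in 26 of 39. A mean under 1 FPKM at each of 91, 119 and 147 DAP was found in 4 of the 24 and in 26 of the 39. The choice itself ties evenness to the level elsewhere, since a gene entered only if its lowest 63-day library was above all other stages. The highest library outside 63 DAP had a median of 12.9 FPKM in the even and 2.45 in the uneven genes. No conclusion on the 2 groups is drawn from these counts. The opposite spread occurred as well. JreChr05G10293, singled out after its values were seen, had 4.36, 1.43 and 22.1 FPKM at 63 DAP and 1.13 FPKM in 35 DAP replicate 2, its highest library elsewhere.

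**Figure D4:**
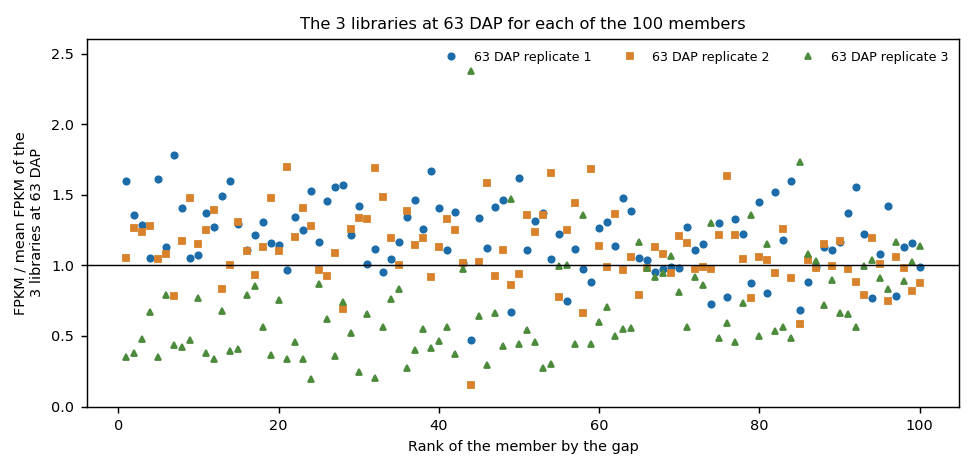
For each of the 100 genes, ordered by the gap (horizontal axis, rank), the FPKM of each library at 63 DAP is divided by the mean of the 3 (vertical axis, linear from 0). Replicate 3 lies lowest in 47 of the 50 genes with the largest gaps and in 33 of the other 50.

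The choice was repeated without each library of 63 DAP in turn, and the library left out, which had no part in the ranking, was then read. The level filter still included it, which matters for genes seen only at 63 DAP. Without replicate 1, it lay above every library of the other stages in 98 of the 100 genes chosen. Without replicate 2 the number was 98, and without replicate 3 it was 85. Over all tested genes the left-out library lay above all others in 9.03, 8.14 and 7.10%. The libraries of the other stages were the ones used in the choice, which picked genes low in them. The tested genes were not picked so, and their share is not a like comparison. With the library left out of the filter too, an alternative added after the values were seen, the numbers were 98, 92 and 79 of 100, against 8.73, 7.88 and 6.86% of the genes then tested, and 75, 74 and 69 of the original genes were chosen. The median level in the left-out library was 24.0, 18.0 and 9.59 FPKM for replicates 1, 2 and 3. These genes were chosen each time from the other libraries, and 91, 91 and 83 of them were among the original 100. Without replicate 3 the number of genes meeting the non-overlap condition was 1055 in place of 664.

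Replicate 2 at 35 DAP also differed from its stage. It was the highest of the 3 libraries in 68 of the 100 genes, against 15 and 16 for replicates 1 and 3. Over the 22095 tested genes above 0 at that stage it was the highest in 39%, and replicates 1 and 3 in 30.1 and 30.9%. At least 1 FPKM was reached by 66 members in it and by 51 and 58 in replicates 1 and 3, and by 92.5% of tested genes against 91.8 and 91.4%. In JreChr13G12089 it had 1241 FPKM against 327 and 488. Without this library, 731 genes met the non-overlap condition and 90 of the 100 were chosen again.

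The stages other than 63 DAP can be compared with each other, since the choice caps them without fixing their order. Between 35 and 91 DAP, 17 of the 100 genes were higher at 91 DAP and 27 lower at an adjusted p under 0.05 (limma with Benjamini-Hochberg adjustment over all 22310 genes). Of all tested genes, 22.4% were higher and 37.6% lower, above the shares of the members. Of the members, 38 passed the filter only with the help of the 63-day libraries and reached 1 FPKM in at most 2 libraries of the other stages. The 63-day libraries also entered the variance of these tests. The part of either in the member shares was not tested. A filter on the other libraries alone was added after the values were seen. Of the 62 members that passed it, 15 (24.2%) were higher and 21 (33.9%) lower. Of the tested genes passing it, 22.6% were higher and 37.6% lower. The median change of the members was -0.21 on the log2(FPKM + 1) scale, and that of all tested genes -0.17. The split rests on the scaling. Of all genes called, 37.4% were higher at 91 DAP, and 54.4% were after quantile normalization, which moved the median of all genes from -0.17 to 0.10. The members then numbered 26 higher and 21 lower, with a median change of -0.01, where 34.9% of all tested genes were higher and 29.3% lower.

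The rises from 35 to 91 DAP were led by JreChr06G11339, JreChr12G11149 and JreChr03G11676, none of which is annotated in the tables. JreChr06G11339 had 2.14, 2.22 and 1.72 FPKM at 35 DAP and 28.7, 29.1 and 33.8 at 91 DAP, a log2 change of 3.38 (SE 0.20, limma adjusted p = 2.69e-09). Its 63-day libraries had 102.3, 126 and 84.5 FPKM, and it kept 17.0 to 35.2 FPKM to the last stage. JreChr12G11149 rose by 3.20 (SE 0.44, limma adjusted p = 2.11e-05). JreChr03G11676 had 0.384 to 0.718 FPKM at 35 DAP and 10.4 to 14.7 at 91 DAP, a log2 change of 3.13 (SE 0.42, limma adjusted p = 1.57e-05). In all 3 genes the libraries of the pair of stages did not overlap. At 147 DAP JreChr12G11149 was back in the range of 35 DAP in 1 library and below it in another.

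The falls were led by JreChr13G10931, JreChr16G11105 and JreChr08G11965, all of which were listed at 0 in all 9 libraries from 91 DAP on. JreChr13G10931 had 8.88, 18.8 and 10.7 FPKM at 35 DAP and 107, 96.4 and 28.8 at 63 DAP. JreChr16G11105 had 5.29, 14.5 and 14.4 FPKM at 35 DAP and 174, 109 and 43.1 at 63 DAP. JreChr08G11965 had 2.93, 5.03 and 4.79 FPKM at 35 DAP and 31.5, 44.4 and 8.26 at 63 DAP. On the log2(FPKM + 1) scale they fell by 3.72, 3.52 and 2.37, with limma adjusted p-values of 9.39e-07, 3.58e-06 and 0.000153. Being listed at 0, their later level gives no fold change.

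Between 119 and 147 DAP, 2 of the 100 genes were higher at 147 DAP and 28 lower by the same limma test. Of all tested genes 14.1% were higher and 21.8% lower. Of the 62 members that passed the filter without the 63-day libraries, 2 (3.23%) were higher and 27 (43.5%) lower, against 14.3% and 21.9% of tested genes passing it. The median change was -0.08 for all 100 members and -0.10 for all tested genes. Lower in both comparisons were 5 of the 100 and 8.09% of tested genes, and past the threshold in neither were 42 of the 100 and 27.3% of tested genes. These last shares were not taken for the 62 alone. The other members reached 1 FPKM in at most 2 libraries outside 63 DAP, which leaves little room for a call.

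The deepest falls at the end were those of JreChr11G10150, JreChr13G12089 and JreChr02G11058, all abundant at 63 DAP. JreChr11G10150 fell by 5.71 on the log2(FPKM + 1) scale (SE 0.71, limma adjusted p = 3.49e-05), from 34.3 to 76.7 FPKM at 119 DAP to at most 0.186. JreChr13G12089 fell by 3.98 (SE 0.87, limma adjusted p = 0.00265) and JreChr02G11058 by 3.00 (SE 0.65, limma adjusted p = 0.00249). The starch synthase homolog JreChr12G10791 fell by 2.51 (SE 0.23, limma adjusted p = 2.85e-06). Its change from 35 to 91 DAP was 0.43 (SE 0.23, limma adjusted p = 0.124), which did not pass the threshold, but its adjusted p was 0.0228 after median-ratio scaling and 0.0185 after quantile normalization.

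The genes that rose at the end were JreChr07G11421 and JreChr01G12793. JreChr01G12793 had 5.34, 12.05 and 7.47 FPKM at 119 DAP and 14.7, 17.9 and 25.6 at 147 DAP, a log2 change of 1.17 (SE 0.27, limma adjusted p = 0.00389). It had 79.2, 80.9 and 50.7 FPKM at 63 DAP. JreChr07G11421 rose by 1.31 (SE 0.46, limma adjusted p = 0.0385). This call was lost without replicate 1 or 3 of 119 DAP, replicate 1 or 3 of 147 DAP or any library of 35 DAP, with adjusted p-values from 0.0504 to 0.125. None of the annotated genes rose between these stages.

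**Figure D5:**
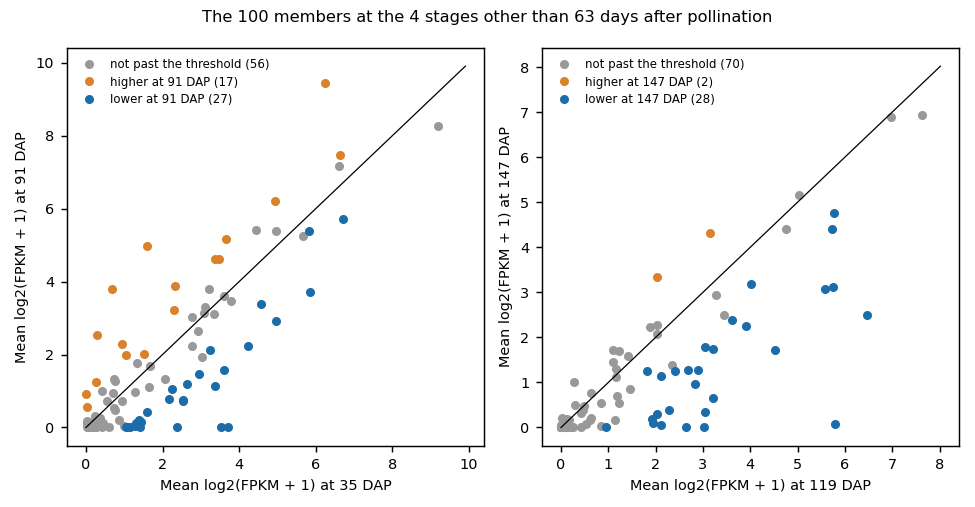
Mean log2(FPKM + 1) of the 100 genes at 35 DAP (horizontal axis) against 91 DAP (vertical axis) on the left, and at 119 against 147 DAP on the right, with the diagonal marking no change and colours marking genes past the limma threshold. On the left 17 genes are higher and 27 lower at 91 DAP, on the right 2 are higher and 28 lower at 147 DAP.

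The 100 genes lay on all 16 chromosomes. Chromosome 4 held 12 of them, where it held 6.16% of the tested genes, and chromosome 3 held 11, where it held 9.35%. Within 50 kb of each other lay 3 pairs of members. JreChr04G10180 and JreChr04G10181 were 1358 bases apart, JreChr12G10807 and JreChr12G10808 1560 bases, and JreChr10G12250 and JreChr10G12251 2039 bases. For comparison, the 100 genes chosen by the same rule at the other stages held 4 to 17 such pairs.

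The members of a pair were not all alike in level. JreChr12G10807 had 34.6, 26.0 and 38.3 FPKM at 63 DAP and JreChr12G10808 21.8, 29.2 and 39.0, and in the other libraries they ranged from 0.306 to 11.8 and from 0.516 to 12.5 FPKM. JreChr10G12250 had 123, 78.0 and 99.8 FPKM at 63 DAP and JreChr10G12251 12.6, 8.07 and 5.37. From 35 to 91 DAP JreChr10G12250 rose by 1.17 (SE 0.28, limma adjusted p = 0.00245). The change of JreChr10G12251 was -0.07 (SE 0.25, limma adjusted p = 0.823). JreChr10G12251 reached at most 0.547 FPKM outside 63 DAP, which left little room for a call, so the changes are not a like comparison. JreChr04G10180 had 5.98, 5.92 and 1.19 FPKM at 63 DAP and JreChr04G10181 39.8, 69.7 and 13.9. The pair on chromosome 12 was thus close in level, and in the other pairs the libraries of the 2 genes at 63 DAP did not overlap.

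The members were short. Their annotated spans, introns included, had a median of 1340.5 bases and ran from 195 to 8513, where all tested genes had a median of 2994. A span under 1000 bases was found in 43 of the 100 and in 18.5% of tested genes. This was not peculiar to 63 DAP, since the 100 genes chosen by the same rule at the other 4 stages had 33 to 38 spans under 1000 bases. FPKM divides by length, so short genes have the larger sampling error at a given level. The gaps were smaller at 63 DAP than at 35 or 147 DAP. The gene of rank 100 had a gap of 1.44 at 63 DAP. The same rank had 4.13 in the 35-day, 0.764 in the 91-day, 0.806 in the 119-day and 2.87 in the 147-day set. The libraries of the peak stage were also less even at 63 DAP, with a median ratio of highest to lowest of 2.29 against 1.26 to 2.09 at the other stages.

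Other genes of the tissue were set beside the 100 by lists drawn from the annotated genes, with members left out. Between 35 and 63 DAP, 19.3% of all tested genes were higher at 63 DAP and 27.4% lower, with a median change of -0.07 on the log2(FPKM + 1) scale. Between 63 and 91 DAP, 7.59% were higher at 91 DAP and 18.9% lower, with a median of -0.10. The comparisons share the 63-day libraries.

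Cell division and cell wall genes were mostly lower at 63 than at 35 DAP. Of 21 tested cell division genes, 13 were lower and 1 higher at 63 than at 35 DAP (median -1.60), and 10 were lower and 1 higher at 91 than at 63 DAP, or 6 lower and 1 higher after quantile normalization. JreChr13G10468, a kinesin homolog, had 12.6, 11.97 and 11.4 FPKM at 35 DAP and 0.573, 0.9502 and 0.881 at 63 DAP. Of 14 genes of the pectin, expansin and glucan list, 9 were lower and 0 higher at 63 than at 35 DAP. This list also holds glucan synthases, an enzyme inhibitor and a gene described only as an expressed protein. The expansin homolog JreChr14G11403 had 12.8, 15.1 and 10.6 FPKM at 35 DAP and 0.675, 0.378 and 0.433 at 63 DAP. All 3 tested genes of the list for secondary wall and lignin were lower at 63 DAP. By annotation they are a laccase (JreChr01G13033), a fasciclin-like arabinogalactan protein (JreChr04G11905) and an endoglucanase (JreChr10G11590). The first 2 of them were lower again at 91 DAP. These lists had none of the 100 genes.

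Flavonoid genes included a local high at 63 DAP. Of 6 tested, 3 were higher and 1 lower at 63 than at 35 DAP, and 2 were lower and 0 higher at 91 than at 63 DAP. After quantile normalization 0 were lower at 63 DAP and 1 was higher at 91 DAP. The chalcone synthase homolog JreChr02G10304, whose enzyme opens flavonoid synthesis, had 63.9, 48.2 and 47.8 FPKM at 35 DAP, 169, 196 and 195 at 63 DAP and 49.4, 52.3 and 129 at 91 DAP. JreChr09G12363 had 194, 187 and 189 FPKM at 63 DAP and 103 to 110 at 91 DAP. Both were highest at 147 DAP, with up to 1088 and 1058 FPKM, which kept them out of the 100.

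Lipid, transport and regulatory lists moved in both directions. Of 20 tested genes of cuticle and lipid, which exclude the GDSL pair, 4 were higher and 8 lower at 63 than at 35 DAP, and 3 were higher and 9 lower at 91 DAP than at 63. JreChr13G11197, homolog of the Arabidopsis oleate desaturase FAD2, had 4.55 to 21.4 FPKM at 35 DAP, 111 to 162 at 63 DAP and 111 to 591 at 91 and 119 DAP, and so was not confined to 63 DAP. Of 65 transporter genes, 12 were higher and 19 lower at 63 than at 35 DAP, and 7 were higher and 12 lower at 91 than at 63 DAP, or 13 and 7 after quantile normalization. JreChr05G12917, a sugar transporter homolog of the nodulin MtN3 family, had 13.1 to 50.96 FPKM at 35 DAP, 369 to 747 at 63 DAP and 524 to 1172 later. JreChr13G11197 and JreChr05G12917 thus stayed high in the stage after 63 DAP, where both lists had more genes lower than higher before quantile normalization. The paper reports high expression of JreChr13G11197 in the embryo, and the part of embryo transcripts in its level here was not tested.

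Of 105 transcription factor genes other than JreChr03G12037, 27 were higher and 26 lower at 63 than at 35 DAP, and 8 were higher and 23 lower at 91 than at 63 DAP. Both splits turned with the scaling, the first to 21 higher and 30 lower with libraries rescaled to equal sums and the second to 14 higher and 12 lower after quantile normalization. Of 30 genes for oxidases, cytochrome P450 and glucosyltransferases, 8 were higher and 7 lower at 63 than at 35 DAP, but 8 were higher and 10 lower with libraries rescaled to equal sums. Of 26 hormone genes, 4 were higher and 8 lower, or 6 and 6 after quantile normalization. JreChr16G10714, a gibberellin-regulated GASA family gene, had 1202 to 2060 FPKM at 35 DAP and 13.3 to 25.9 at 63 DAP. It fell by 6.28 on the log2(FPKM + 1) scale (SE 0.36, limma adjusted p = 5.77e-09). Of the 2 tested photosynthesis genes, 1 was lower at 63 DAP. All 4 embryo storage genes were higher at 63 than at 35 DAP (median 8.14), and 2 of them higher again at 91 DAP.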

How the data were processed

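RNA-seq was made from endopleura of the walnut cultivar Linzaoxiang, 3 libraries at each of 5 stages. Reads were aligned by the authors to their own J. regia assembly with HISAT2 2.1.0 and quantified with StringTie 1.3.5, and the deposited table holds FPKM per gene for 39414 genes. The name of the build is not given in the sources used here. Read counts were not used, since FPKM values do not give them. Relative depth was estimated from the steps between low values (101 of 105 library pairs within 0.02 of 1 common solution) and entered no test.

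Values were taken as log2(FPKM + 1). A level filter, 1 FPKM or more in 3 or more of the libraries, left 22310 genes to test. Stages were compared with limma 3.58.1 in R 4.3.3, as a linear model over all 15 libraries with moderated variance and a trend. Tests were two-sided, with Benjamini-Hochberg adjustment over all tested genes and a threshold of 0.05. The procedure was first tried on simulated data with the same spread at every stage and no changes in genes of low mean level. That trial does not cover genes near 0 outside 63 DAP, as many members were. Tables and plots were made with Python 3.11.15, pandas 2.3.3 and matplotlib 3.10.9. A change on this scale understates that of low genes. The p-values measure the spread between these pools of nuts. The members were compared only between stages other than 63 DAP, since the choice of members used that stage. The 63-day libraries still entered the variance of each gene, so the p-values of members rest in part on their spread. JreChr05G10003, listed at 0 in all libraries of 119 and 147 DAP, had an SE of 0.395 between these stages, the same as between 35 and 63 DAP.

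The members and lists were chosen with earlier results of these data known. Genes named were the 12 with the largest gap, the 3 highest and 3 lowest at 63 DAP, every annotated member, the 3 largest rises and falls past the threshold in each tested comparison, members within 50 kb of each other, and the 2 genes on each side of the boundary. In each list the 2 genes with the largest change from 35 to 63 DAP, and the markers of embryo, green tissue and flavonoids, could be named. Annotations came from the study's supplementary tables, which hold 4584 genes of the table. The RefSeq gene table matched 0 of the identifiers. The alternatives were a pseudocount of 0.1, no filter, a mean of at least 5 FPKM, other scalings, another variance model, a replicate block, only the stages compared, a minimum log2 change of 1, and each library left out. The 4 contrasts used were fitted together.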

Additional observations from a re-analysis of the deposited data

How the results depend on the processing

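Precision was limited by 3 pools per stage and by FPKM values without known depth. The number of genes with all 63-day libraries above the rest was 664, 465 to 759 under other scalings, filters and the smaller pseudocount, and 674 to 1055 with 1 library left out, the highest without 63 DAP replicate 3. Of the 100 genes, 82 to 98 were chosen again under the pseudocount, the scalings and no filter, 83 to 99 with 1 library left out, but 47 with a mean of at least 5 FPKM required, where fewer genes could be chosen. Members higher at 91 than at 35 DAP numbered 17, 26 after quantile normalization, 10 with a log2 change of at least 1, and 12 to 17 with 1 library left out. Members lower numbered 27, 16 with the mean filter of 5 FPKM, where fewer genes were tested, and 22 to 31 with 1 library left out. Members higher at 147 than at 119 DAP numbered 2, 1 with no filter, 4 after quantile normalization and 1 to 3 with 1 library left out, and those lower 28, or 22 to 29. The genes of the lists higher at 91 than at 63 DAP numbered 27, 41 after quantile normalization and 17 to 29 with 1 library left out, the lowest without 91 DAP replicate 2. List genes higher at 63 than at 35 DAP numbered 62, or 49 to 58, those lower 93, or 84 to 89, and those lower at 91 than at 63 DAP 77, or 61 to 73.

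Same-numbered libraries did not deviate together in most pairs. Their correlations ran from -0.399 to 0.413, with a median of -0.026, and were over 0.1 in 10 of 30 pairs. The replicate numbers were taken as names without pairing. With a replicate block, 17 members were higher and 28 lower at 91 than at 35 DAP, and 3 were higher and 29 lower at 147 than at 119 DAP. For the 36 named members, 1630 of 1696 values under alternatives stayed on the same side of the threshold, 44 lost the call and 22 gained it. A called direction was reversed in 0. Values past the threshold in neither setting were given no direction, so a change of sign there was counted as the same. Genes listed at 0 in both stages compared had no call to lose. JreChr05G10003 lost its fall from 35 to 91 DAP (adjusted p = 0.0304) without replicate 2 or 3 of 35 DAP or any library of 91 DAP, with adjusted p from 0.0588 to 0.104. The cause of the other changes was not tested.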
